A study of Homo sapiens with 8 samples.

Results

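The genes described here encode the DNA replication machinery, the proteins that license replication origins, unwind DNA, copy it, and supply nucleotides and new chromatin behind the fork. A list of 39 genes was matched to the array by gene symbol, and 38 of them were measured among 22411 genes with a single symbol. RRM1, the large subunit of ribonucleotide reductase, lay only on an array feature that carries more than 1 symbol and was not read. SK-N-MC, a cultured line of Ewing sarcoma, gave RNA for 8 arrays. For 4 arrays the cells had been transfected with combined YAP1 and TAZ siRNAs, and for the other 4 with non-targeting control siRNA, each at 10 nM with Viromer Blue as carrier, and all were collected after 72 h. All 8 samples therefore share the cell line, the transfection and the dose, and a single line and a single siRNA mix were used. The design text gives 4 parallel cultures per siRNA group and no batch, so p-values measure the spread between parallel cultures of a single line. They do not measure a spread between cell lines. Each value is the log2 signal that the authors deposited for a transcript cluster, the probe group that reads 1 locus, so a difference of 1 is a 2-fold change.

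YAP1 and TAZ, the product of WWTR1, are co-activators that the Hippo kinases restrain and that act with TEAD factors on genes of growth. Replication begins when the origin recognition complex, CDC6 and CDT1 load the MCM helicase onto DNA in G1. In S phase CDC45 and GINS join that helicase, the polymerases copy the strands with PCNA as their sliding clamp, and most of these genes are transcribed under E2F factors as cells approach S phase. Ewing sarcoma lines divide quickly, so the genes are active in them.

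Promoter sequences from RefSeq (GRCh38.p14), running from 250 bases before to 50 after the annotated gene start, were matched for 33 of the 38 genes. FAM111B, MCM4, MCM5, GINS4 and POLD3 were not searched. The promoters were searched on both strands for TTTCGCGC or TTTGGCGC, the letters of a strong E2F site. Of the 33 promoters 10 held them (30.3%), against 1.18% of 27305 promoters and 2.21% of the 8244 promoters of genes above the median array signal. CDC6, MCM2, MCM3, MCM6, MCM7, GINS1, POLA1, POLA2, POLE and POLE2 were those 10. The 4 of these that belong to MCM helicase subunits are shown because they share 1 complex and include MCM3, and they are printed from 170 bases before to 30 after the start, 5′ to 3′, with the E2F letters in capitals.
MCM2, GRCh38.p14, chr3:127598241-127598440, plus strand: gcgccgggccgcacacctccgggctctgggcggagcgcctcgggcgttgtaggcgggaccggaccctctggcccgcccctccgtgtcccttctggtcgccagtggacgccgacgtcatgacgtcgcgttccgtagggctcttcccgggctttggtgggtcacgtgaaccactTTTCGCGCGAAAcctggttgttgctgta
MCM3, GRCh38.p14, chr6:52284713-52284912, minus strand: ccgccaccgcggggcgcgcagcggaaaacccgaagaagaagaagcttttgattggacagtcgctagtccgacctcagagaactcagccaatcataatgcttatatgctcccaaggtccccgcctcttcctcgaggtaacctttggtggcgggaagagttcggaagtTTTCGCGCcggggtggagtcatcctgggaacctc
MCM6, GRCh38.p14, chr2:135876414-135876613, minus strand: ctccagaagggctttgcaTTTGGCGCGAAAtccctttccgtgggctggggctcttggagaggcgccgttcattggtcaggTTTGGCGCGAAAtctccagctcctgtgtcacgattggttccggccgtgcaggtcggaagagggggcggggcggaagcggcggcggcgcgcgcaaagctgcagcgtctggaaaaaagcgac
MCM7, GRCh38.p14, chr7:100101368-100101567, minus strand: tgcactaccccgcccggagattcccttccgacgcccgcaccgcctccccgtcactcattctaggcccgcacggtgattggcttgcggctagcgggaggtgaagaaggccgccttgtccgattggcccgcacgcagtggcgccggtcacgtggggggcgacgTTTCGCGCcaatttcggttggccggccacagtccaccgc
In MCM3 the capitals begin 4 bases before the start and in MCM7 9 bases before it. MCM2 holds them just inside the transcript as a palindrome in which both strands match, and MCM6 holds a pair of such overlapping matches that begin 152 and 90 bases before the start. CCAAT, the letters bound by NF-Y, stood in 18 of the 33 promoters (54.5%), against 35.7% of all promoters and 38.0% of those of genes above the median signal. GGAATG, the core letters of a TEAD site, stood in 5 of 33 (15.2%), against 14% of all and 10.3% of those above the median signal. TTTGAA, a form of the cell cycle homology element of G2 and M genes, stood in 0 of 33, against 15.4% and 10.0%. These matches are descriptions of letters in a window and not of binding.

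The siRNA target genes check the labels. YAP1 signal was 6.27, 6.41, 6.42 and 6.40 on YAP1/TAZ siRNA replicates 1 to 4, against 7.64, 7.72, 7.71 and 7.66 on control replicates 1 to 4. WWTR1 signal was 5.74, 5.91, 5.91 and 5.86 on YAP1/TAZ siRNA arrays, against 6.52, 6.39, 6.42 and 6.57 on control arrays. YAP1 differed by -1.31 (SE 0.053, limma adjusted p = 4.73e-05) and WWTR1 by -0.62 (SE 0.064, adjusted p = 0.00898). Both genes fell, with no overlap between the groups (2-sided exact permutation p = 0.0286, the smallest that 4 against 4 can give). Array signals over all genes correlated at 0.992 to 0.998. YAP1/TAZ siRNA replicate 2 and control replicate 4 were displaced together from the other 6 arrays along principal component 1 (46% of the variance), so each group has 1 displaced array, and results that rest on them are also given without them. Ewing sarcoma markers such as NKX2-2 were all above the median signal of all genes (8 of 8 measured), while 0 of 5 blood cell markers, 3 of 6 epithelial markers and 5 of 6 fibroblast markers were. Their mean log2 signal ran over 11.28 to 11.45 on YAP1/TAZ siRNA arrays and 11.28 to 11.38 on control arrays for Ewing markers, 4.00 to 4.08 and 4.03 to 4.16 for blood cell markers, 5.51 to 5.55 and 5.48 to 5.57 for epithelial markers, and 6.54 to 6.74 and 6.69 to 6.89 for fibroblast markers. Single markers moved within these ranges, chosen here after their values were seen. Of the Ewing markers LIPI fell, by 0.63 on the log2 scale (adjusted p = 0.0136), and PRKCB differed by 0.46 (adjusted p = 0.102), while the fibroblast marker LUM differed by -0.54 without overlap between groups (adjusted p = 0.185).

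The comparison asks what happens to the replication genes when YAP1 and TAZ are lowered. FAM111B rose, the other 37 genes did not pass the test, and none fell. Most differences were small and lay on 1 side. Of the 38 genes 34 had a higher mean with YAP1/TAZ siRNA and 4 a lower one, with a median log2 difference of 0.11 (a ratio of 1.08), against a median of 0.0075 over all genes tested and 0.045 over those above the median signal. For comparison, the mean was higher with YAP1/TAZ siRNA for 52.8% of all genes and 64.4% of the genes above the median signal, where all 38 replication genes lay. The differences of the 38 ran from -0.08 for MCM10 to 0.76 for FAM111B. The test was limma's moderated test on 4 against 4 arrays, adjusted over 22411 genes by Benjamini-Hochberg, and 1 of the 38 genes passed upward and 0 downward, where 0.134% of all genes passed upward and 0.0803% downward. At an unadjusted limma p under 0.05 there were 8 of the 38, all with the higher mean under YAP1/TAZ siRNA, against 10.3% of all genes in either direction and 7.13% in that direction. Of the genes above the median signal 15.8% had such a p in either direction and 12.2% in that direction. Because the RNA is from whole cultures, a larger share of cells in S phase and more of these transcripts per cell cannot be told apart.

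**Figure D1:**
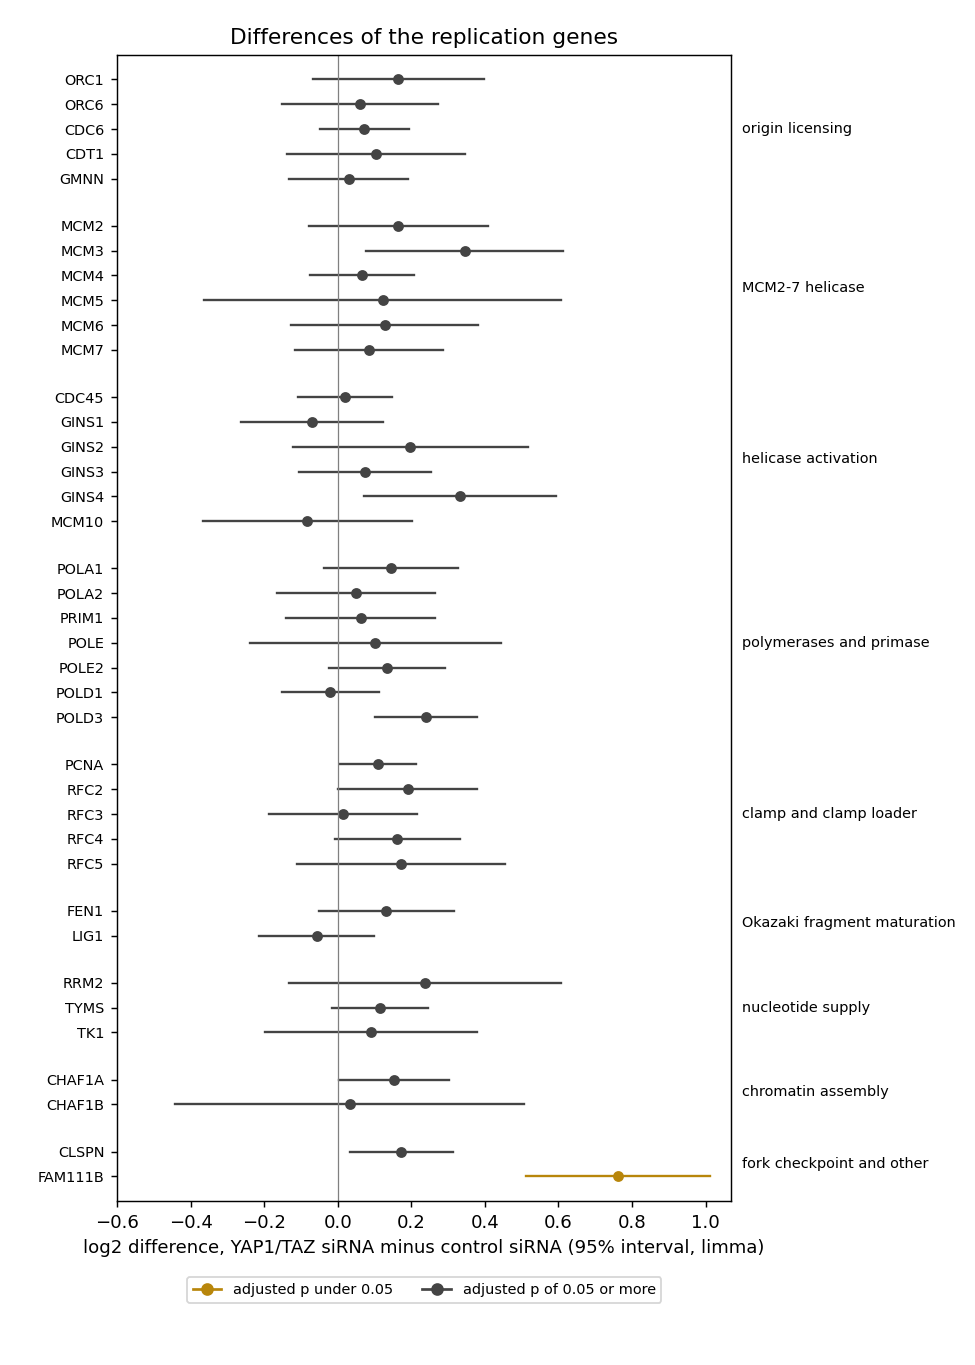
Log2 difference (YAP1/TAZ siRNA minus control siRNA, n = 4 arrays each) of the 38 measured replication genes on the horizontal axis, by role, with bars for limma's 95% interval. FAM111B at 0.76 is the point with an adjusted p under 0.05, and 30 of the 38 intervals cover 0.

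The intervals bound what these arrays allow. The 95% interval of the difference lay inside -0.5 to 0.5 on the log2 scale for 31 of the 38 genes. For the other 7 it reached past 0.5 upward, and for 30 it covered 0. Missing the threshold does not show that a gene was unaffected.

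Origin licensing was represented by 5 genes, and none passed. ORC1, the subunit of the origin recognition complex that cycles with the cell cycle, gave 7.88, 7.78, 8.15 and 7.98 on YAP1/TAZ siRNA replicates 1 to 4, against 7.95, 7.89, 7.68 and 7.61 on control replicates 1 to 4. The groups overlap for ORC1, with 2 control arrays above the lowest YAP1/TAZ siRNA array, and the difference was 0.17 (SE 0.10, adjusted p = 0.65). CDC6, the ATPase that brings the helicase to origins, gave 10.49, 10.60, 10.60 and 10.59 on YAP1/TAZ siRNA arrays, against 10.51, 10.52, 10.55 and 10.41 on control arrays. YAP1/TAZ siRNA replicate 1 was the low array there, and the CDC6 difference was 0.07 (95% interval -0.05 to 0.19). The other 3 were ORC6, CDT1, which loads the helicase, and GMNN, the geminin that blocks CDT1, with differences of 0.06, 0.11 and 0.03. The CDT1 interval ran from -0.14 to 0.35, and its difference was -0.01 without control replicate 4, an array where it read 5.81 while the other controls read 6.18 to 6.29.

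All 6 subunits of the MCM helicase, the ring that unwinds DNA, had a higher mean with YAP1/TAZ siRNA, and none passed the test. MCM3 gave 12.09, 11.77, 12.16 and 12.30 on YAP1/TAZ siRNA arrays, against 11.85, 11.83, 11.73 and 11.53 on control arrays. YAP1/TAZ siRNA replicates 1, 3 and 4 lay above every control, and replicate 2 lay below 2 of them. The MCM3 difference was 0.35 (SE 0.12, adjusted p = 0.346), and 0.38 without YAP1/TAZ siRNA replicate 2 and control replicate 4 (adjusted p = 0.064). With these 2 arrays fitted as a block MCM3 passed at an adjusted p of 0.0383, the 1 other replication gene to do so beside FAM111B (2 of 38, where 1.49% of all genes passed upward). The 2 arrays were chosen for the block from these same data, so calls under it carry that limit. MCM2 gave 8.89, 8.62, 8.92 and 9.01 on YAP1/TAZ siRNA arrays, against 8.79, 8.82, 8.72 and 8.45 on control arrays. Its groups overlap through replicate 2, and the difference was 0.17 (SE 0.11, adjusted p = 0.672). MCM4, MCM5, MCM6 and MCM7 differed by 0.07, 0.12, 0.13 and 0.09, with adjusted p between 0.788 and 0.912. These subunits sit in 1 ring in equal number, and their RNA differences spanned 0.07 to 0.35.

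The partners that turn the loaded ring into the active helicase were more mixed, with 4 of 6 means higher. GINS4 gave 9.42, 9.09, 9.39 and 9.66 on YAP1/TAZ siRNA arrays, against 9.06, 9.17, 9.10 and 8.90 on control arrays. As for MCM3, replicates 1, 3 and 4 were above every control and replicate 2 was not, and the difference was 0.33 (SE 0.12, adjusted p = 0.352). GINS2 gave 7.20, 6.88, 7.36 and 7.23 on YAP1/TAZ siRNA arrays, against 6.96, 7.09, 7.21 and 6.62 on control arrays, a difference of 0.20 with overlapping groups (SE 0.14). GINS1 and GINS3, further subunits of the same 4-part complex, differed by -0.07 and 0.08, CDC45 by 0.02 and MCM10, which helps to start unwinding, by -0.08. The sign for GINS1 was kept in every alternative run, at -0.12 to -0.02, whereas MCM10 lay at 0.04 without YAP1/TAZ siRNA replicate 2. Whether GINS4 and GINS1 differ from each other in their response was not tested.

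Among 7 polymerase and primase genes 6 had a higher mean, and none passed. POLD3, an accessory subunit of polymerase delta, the lagging-strand enzyme, gave 10.81, 10.85, 11.01 and 10.90 on YAP1/TAZ siRNA arrays, against 10.73, 10.64, 10.66 and 10.58 on control arrays. The groups did not overlap, and the difference of 0.24 (SE 0.061) had an unadjusted limma p of 0.00344 and an adjusted p of 0.18. Of the 38 genes 4 had every YAP1/TAZ siRNA array above every control array, namely FAM111B, POLD3, PCNA and CLSPN, and 0 had every one below, against 4.19% and 2.03% of all genes and 7.0% and 2.37% of those above the median signal. POLE2, a subunit of the leading-strand polymerase epsilon, gave 8.31, 8.25, 8.32 and 8.28 on YAP1/TAZ siRNA arrays, against 8.30, 8.13, 8.20 and 7.99 on control arrays. The POLE2 groups overlapped, with control replicate 1 above YAP1/TAZ siRNA replicates 2 and 4, and the difference was 0.14 (SE 0.069, adjusted p = 0.561). POLE itself, the catalytic subunit, differed by 0.10, POLD1, the catalytic subunit of polymerase delta, by -0.02, and the polymerase alpha and primase genes POLA1, POLA2 and PRIM1 by 0.15, 0.05 and 0.06.

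The clamp PCNA had narrow groups. It gave 11.10, 11.07, 11.09 and 11.08 on YAP1/TAZ siRNA arrays, against 11.02, 11.00, 10.95 and 10.93 on control arrays. The groups were separate, yet the difference was only 0.11 (SE 0.045, adjusted p = 0.446). RFC2, a subunit of the loader that opens PCNA onto DNA, gave 9.75, 9.58, 9.85 and 9.83 on YAP1/TAZ siRNA arrays, against 9.53, 9.68, 9.64 and 9.40 on control arrays, with a difference of 0.19 (SE 0.084, adjusted p = 0.484). YAP1/TAZ siRNA replicate 2 lay among the controls for RFC2. The loader subunits RFC3, RFC4 and RFC5 differed by 0.02, 0.16 and 0.17, with adjusted p between 0.504 and 0.981.

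Okazaki fragments, the short pieces of the lagging strand, are trimmed by the nuclease FEN1 and joined by the ligase LIG1. FEN1 gave 10.77, 10.66, 11.03 and 10.87 on YAP1/TAZ siRNA arrays, against 10.69, 10.70, 10.63 and 10.78 on control arrays. LIG1 gave 7.89, 7.78, 8.0 and 7.77 on YAP1/TAZ siRNA arrays, against 7.96, 7.92, 7.98 and 7.81 on control arrays. Both overlapped between groups, with differences of 0.13 (SE 0.081) and -0.06 (SE 0.069) and adjusted p of 0.646 and 0.86.

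Nucleotide supply was read from 3 genes. TYMS, which makes thymidylate, gave 11.59, 11.70, 11.72 and 11.65 on YAP1/TAZ siRNA arrays, against 11.47, 11.51, 11.64 and 11.58 on control arrays. It overlapped through control replicate 3, and the difference was 0.12 (SE 0.057, adjusted p = 0.544). RRM2, the small subunit of ribonucleotide reductase and limiting for its activity in S phase, gave 10.32, 9.85, 10.22 and 10.27 on YAP1/TAZ siRNA arrays, against 10.11, 10.21, 9.89 and 9.50 on control arrays. The 4 control values of RRM2 spread over more than the difference of 0.24 (SE 0.16, adjusted p = 0.702). A second, dimmer transcript cluster named RRM2 read 5.09 on average with YAP1/TAZ siRNA and 5.18 with control siRNA and did not follow the first. TK1, the thymidine salvage kinase, differed by 0.09 and lay at -0.04 without control replicate 4.

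The chromatin assembly factor deposits histones on new DNA. CHAF1A, its large subunit, gave 9.97, 10.02, 10.18 and 10.14 on YAP1/TAZ siRNA arrays, against 9.91, 10.01, 9.95 and 9.83 on control arrays. Only control replicate 2 reached into the YAP1/TAZ siRNA range of CHAF1A, and the difference was 0.15 (SE 0.066, adjusted p = 0.475). CHAF1B, its partner, gave 9.50, 8.71, 9.26 and 9.37 on YAP1/TAZ siRNA arrays, against 9.45, 9.42, 9.15 and 8.69 on control arrays. Both groups of CHAF1B held 1 low array, and the difference was 0.03 (SE 0.21).

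FAM111B, a protein with a serine protease domain whose gene is mutated in a hereditary fibrosing skin disorder and whose RNA peaks with S phase, gave 9.47, 9.52, 9.93 and 9.58 on YAP1/TAZ siRNA replicates 1 to 4, against 8.76, 8.96, 8.99 and 8.74 on control replicates 1 to 4. All 4 YAP1/TAZ siRNA arrays lay above all 4 controls, and replicate 3 was the high one. The means were 9.63 ± 0.21 with YAP1/TAZ siRNA and 8.86 ± 0.13 with control siRNA (SD, n = 4 each), a difference of 0.76 (SE 0.11, 95% interval 0.51 to 1.01, limma adjusted p = 0.0417) or 1.70-fold. The next ratio among the 38 genes was 1.27, for MCM3. The call for FAM111B held without YAP1/TAZ siRNA replicate 2 (adjusted p = 0.0369) and was lost without YAP1/TAZ siRNA replicates 1, 3 and 4 (0.0855, 0.0529 and 0.14) and without control replicates 1, 2, 3 and 4 (0.159, 0.131, 0.0889 and 0.0993), while the difference stayed between 0.66 and 0.81 over all 18 alternatives. CLSPN, the claspin that relays fork stress to the checkpoint kinase CHK1, gave 9.82, 9.69, 9.95 and 9.81 on YAP1/TAZ siRNA arrays, against 9.62, 9.62, 9.66 and 9.68 on control arrays. The groups were separated by 0.01 at their nearest, and the difference was 0.17 (SE 0.062, adjusted p = 0.37).

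**Figure D2:**
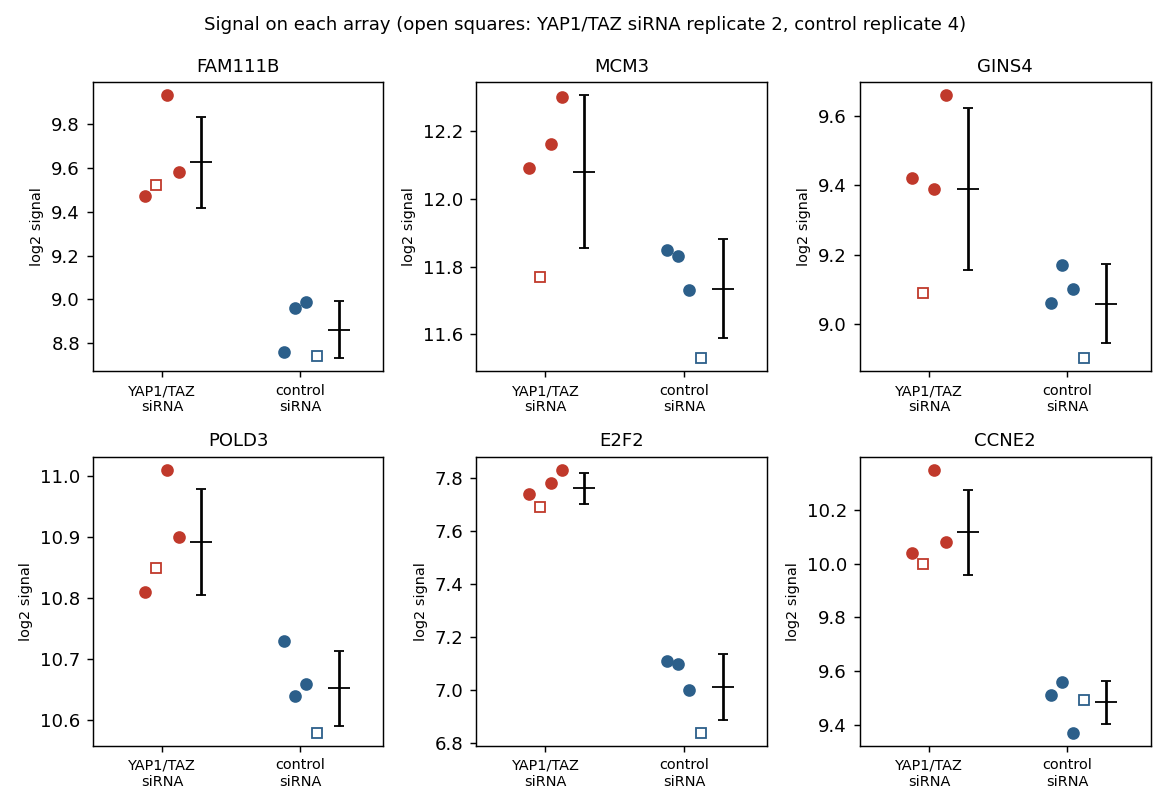
Log2 signal on each of the 8 arrays for FAM111B, MCM3, GINS4, POLD3, E2F2 and CCNE2, with the mean and SD of each group (n = 4) beside the points. YAP1/TAZ siRNA replicate 2 lies among the controls for MCM3 and GINS4 (11.77 and 9.09), whereas the groups are separate for the other 4 genes.

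Much of the spread within groups lay on YAP1/TAZ siRNA replicate 2 and control replicate 4, and it is described here over the 38 genes. On both arrays MCM5, CHAF1B, POLE and RRM2 were low. MCM5 read 9.87 for YAP1/TAZ siRNA replicate 2 (10.61 to 10.69 in the rest of its group) and 9.89 for control replicate 4 (10.37 to 10.66 in the rest of the controls). CHAF1B lay 0.67 below the mean of the other YAP1/TAZ siRNA arrays on replicate 2 and 0.65 below that of the other controls on control replicate 4. For RRM2 these gaps were 0.42 and 0.57 and for POLE 0.47 and 0.41. Of the 38 genes 27 were below the mean of the other arrays of their group on both arrays (71.1%). This was so for 53.8% of genes above the median signal and 31.6% of all genes. For 21 of the 38 genes both arrays were the lowest of their group. The median gap of the 38 was -0.20 on YAP1/TAZ siRNA replicate 2 and -0.15 on control replicate 4, against -0.12 and -0.06 for genes above the median signal. After quantile normalization the count was 28 of 38 (73.7%), against 59.4% of genes above the median signal and 50% of all genes, and the median gaps were -0.18 and -0.15 for the 38 and -0.13 and -0.10 for genes above the median signal. Across the 38 genes the gaps on the 2 arrays correlated at 0.68, and across all 22411 genes at 0.61, as a description, since genes of 1 array share its RNA and processing. The 2 arrays were picked for their shared displacement in these same data, so a positive correlation follows in part from that choice.

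The gaps are described here by role, with no test between roles. Low here means any gap below 0 to the mean of the other arrays of the group. All 6 MCM helicase genes and all 7 polymerase and primase genes were low on both arrays (6 of 6 and 6 of 7 after quantile normalization). Some of these gaps were small, such as -0.03 for MCM7 and POLA1 on control replicate 4 and -0.05 for POLE2 on YAP1/TAZ siRNA replicate 2. Of the 5 origin licensing genes 1, ORC1, was low on both (2 of 5 after quantile normalization). Their gaps on YAP1/TAZ siRNA replicate 2 ran from -0.29 for ORC6 to 0.20 for GMNN, with 0.04 for CDC6. On control replicate 4 they ran from -0.44 for CDT1 to 0.14 for ORC6. GMNN and GINS1 were higher than the rest of their group on YAP1/TAZ siRNA replicate 2, by 0.20 and 0.21 over its mean. GINS1, TYMS and RFC3 were the 3 of 38 above the mean of the other arrays of their group on both arrays. In the mitosis marker list 9 of 16 genes were low on both arrays (56.2%), with median gaps of -0.15 and -0.06, against 53.8% of genes above the median signal. After quantile normalization 11 of 16 were (68.8%), with gaps of -0.15 and -0.09, against 59.4% of genes above the median signal and 73.7% of the 38. Which property of these 2 cultures or arrays goes with the low replication genes was not tested. Their median signal over all genes was 5.09 and 5.07, against 5.0 to 5.05 on the other 6 arrays, and the SD of signal across genes was 2.44 on each, against 2.48 to 2.55.

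**Figure D3:**
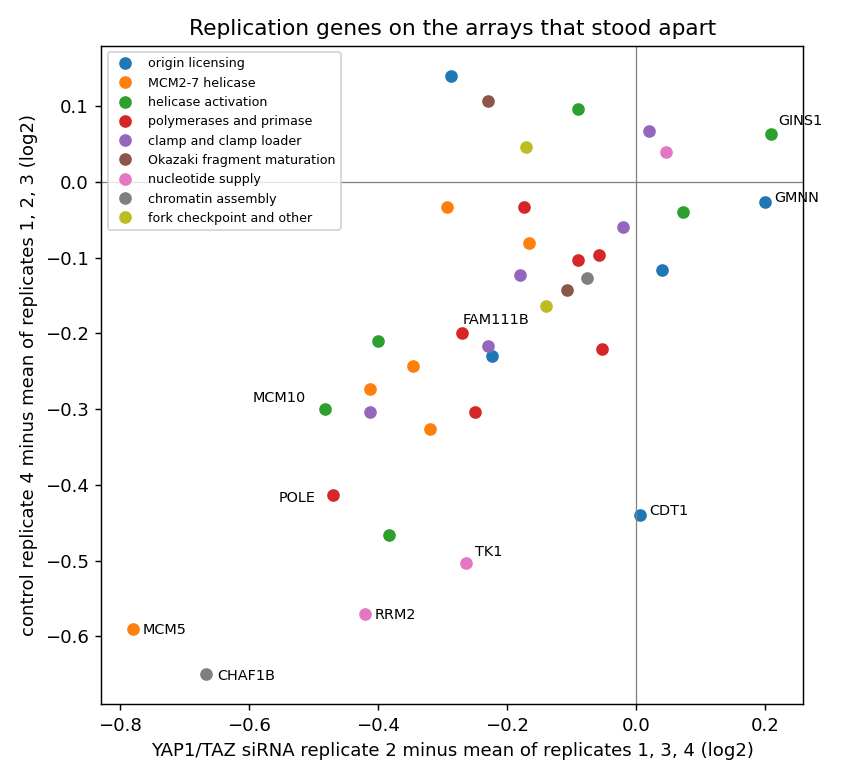
Gap of YAP1/TAZ siRNA replicate 2 to the mean of replicates 1, 3 and 4 (horizontal, log2) against the gap of control replicate 4 to the mean of replicates 1, 2 and 3 (vertical, log2), 1 point per replication gene, coloured by role. MCM5 (-0.78 and -0.59) and CHAF1B (-0.67 and -0.65) lie at the lower left, and 27 of the 38 points have both gaps below 0.

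The median siRNA difference of the 38 genes was above 0 both inside and outside this pair, while single genes differed in sign. Between the 2 displaced arrays, YAP1/TAZ siRNA replicate 2 was above control replicate 4 for 28 genes, below it for 9 and equal for 1, with a median difference of 0.11 and no replicate check. Over the other 6 arrays 32 of 38 differences lay above 0, with a median of 0.13, against a median of 0.0067 over all genes. ORC6 lay at -0.26 inside the pair and 0.17 outside, and FEN1 at -0.12 and 0.22. The share of all genes above 0 was not computed for either contrast. With all 8 arrays 64.4% of genes above the median signal had a higher mean. MCM5 illustrates the effect on the SE, with 9.87 against 9.89 inside the pair, a difference of 0.17 over the other arrays, and an SE of 0.21 without and 0.074 with the pair as a block. The SE became smaller with that block for 36 of the 38 genes, and its median was 0.064 with the block and 0.089 without it. The share of all genes with a smaller SE was not computed. Because the block was picked from the displacement seen in these same data, smaller SEs and added calls follow in part from that choice. Over all genes 48 passed without the block and 439 with it. FAM111B kept its size in each, at 0.78 inside the pair and 0.76 outside.

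**Figure D4:**
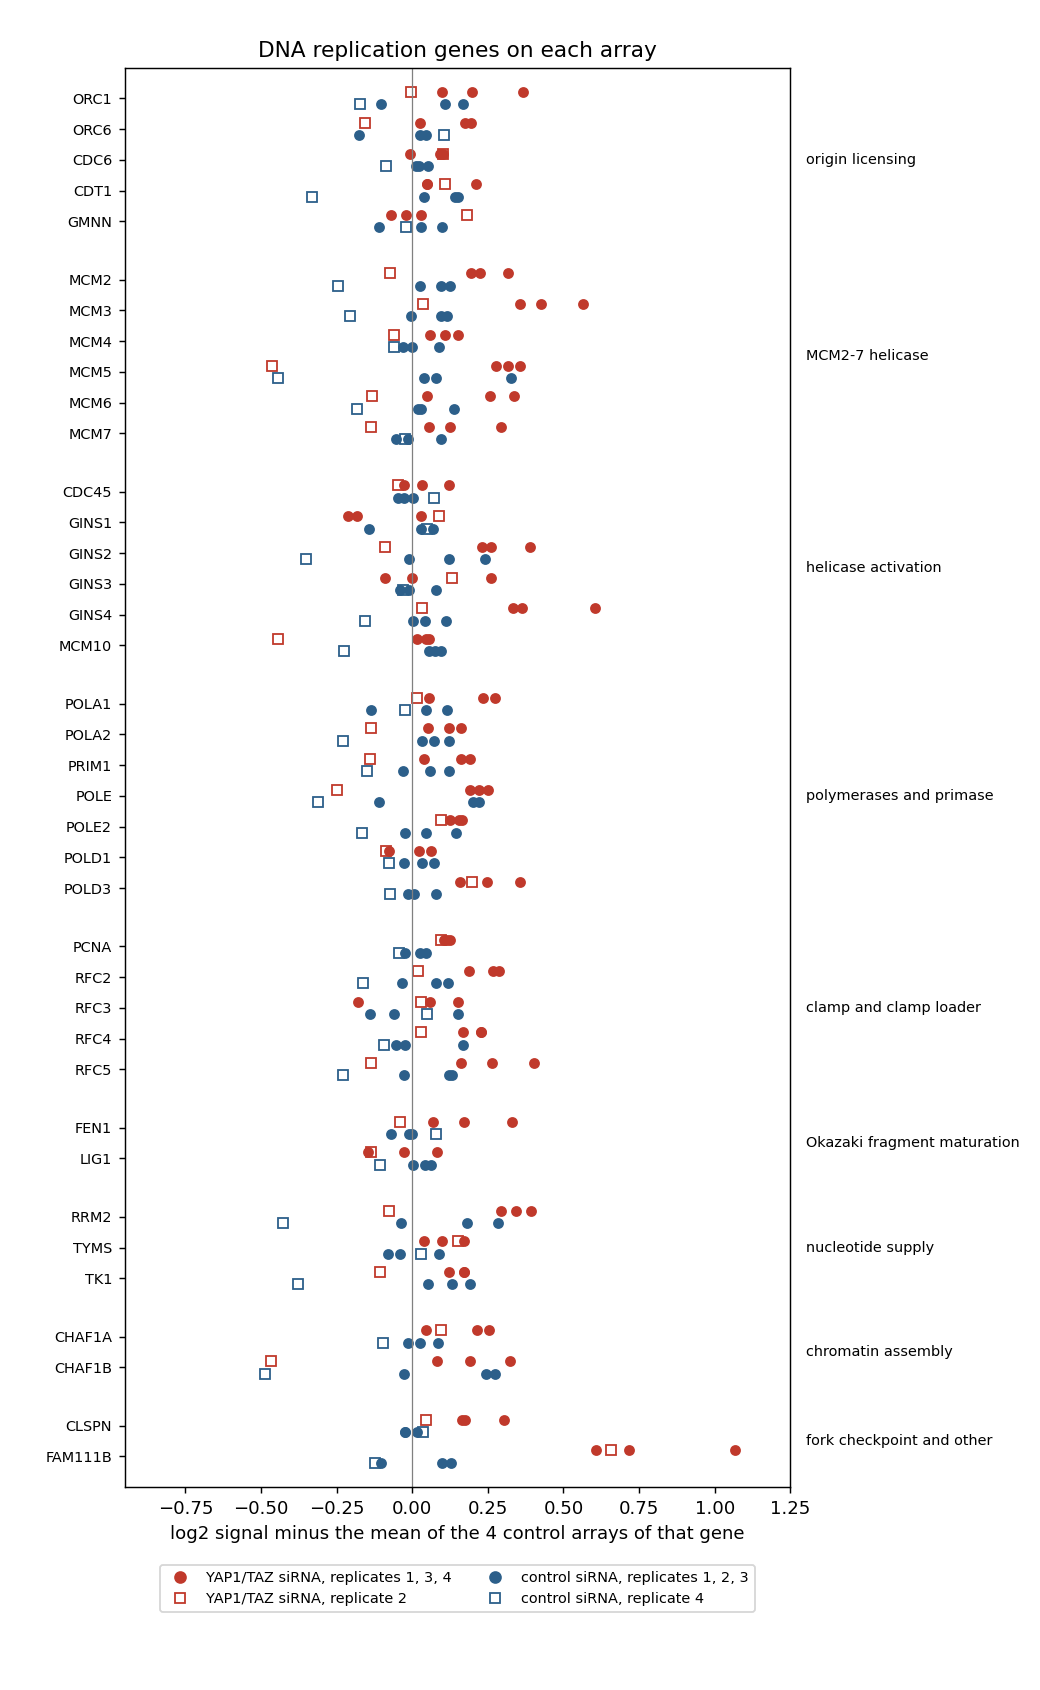
Log2 signal of each replication gene on each array, minus the mean of its 4 control arrays, by role, with YAP1/TAZ siRNA in red above control siRNA in blue and open squares for YAP1/TAZ siRNA replicate 2 and control replicate 4. The squares are at the left of their group for most genes, as for MCM5 and CHAF1B, while FAM111B has all 4 red points to the right of the blue ones.

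Taking each array's median over the 38 genes of the departure from the gene's own mean, YAP1/TAZ siRNA replicates 1 to 4 stood at 0.047, -0.089, 0.15 and 0.12, against 0.0025, -0.0094, -0.030 and -0.18 on control replicates 1 to 4. YAP1/TAZ siRNA replicates 3 and 4 were the high arrays, replicate 1 was nearer to the controls, and replicate 2 was below 3 controls, so the groups overlap on this summary. Over genes above the median signal these medians were 0.01, -0.064, 0.0975 and 0.049, against 0.00125, -0.00625, -0.019 and -0.071 on control replicates 1 to 4. There too YAP1/TAZ siRNA replicate 3 was the highest array, and YAP1/TAZ siRNA replicate 2 and control replicate 4 were the lowest. YAP1/TAZ siRNA replicate 3 was the highest of its group for 22 of the 38 genes, and the share of all genes was not computed. Without that replicate the median difference of the 38 was 0.07, and without control replicate 4 it was 0.08 with 28 of 38 above 0.

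Further replication genes outside the list lay nearer to the background than the 38 in higher means and in unadjusted p under 0.05, but not in group separation. Of 47 listed 45 were measured, 0 passed the test in either direction, 35 had a higher mean with YAP1/TAZ siRNA, 8 had an unadjusted limma p under 0.05, and the median difference was 0.09. These are 77.8% with a higher mean and 17.8% with such a p, against 64.4% and 15.8% of genes above the median signal. The genes for chromatin behind the fork were all higher on average, with a median of 0.22 over 6. ASF1A, a histone chaperone that feeds the chromatin assembly factor, gave 9.23, 9.26, 9.38 and 9.33 on YAP1/TAZ siRNA arrays, against 8.81, 9.05, 9.05 and 8.87 on control arrays, without overlap (difference 0.36, SE 0.072, adjusted p = 0.108). UHRF1, which directs maintenance methylation of new DNA, differed by 0.32 (SE 0.087, adjusted p = 0.206), and RBBP4, a histone-binding subunit of the assembly factor, by 0.14 (SE 0.055). ASF1A and UHRF1 passed with the 2 displaced arrays as a block (adjusted p = 0.0439 and 0.038, where 1.49% of all genes passed upward). Without those arrays UHRF1 passed (adjusted p = 0.0457) and ASF1A did not (0.107). Of the origin firing genes DBF4 and CDC7, the regulatory and catalytic subunits of the kinase that fires origins, differed by 0.26 (SE 0.085) and 0.16 (SE 0.067), and TICRR, the treslin that brings CDC45 to origins, by 0.46 (SE 0.22). TICRR shared the low values of the displaced pair, at 9.80 for YAP1/TAZ siRNA replicate 2 where its group otherwise read 10.52 to 10.60, and at 9.43 for control replicate 4 where the other controls read 9.81 to 10.26. At the fork RNASEH2B, a subunit of the nuclease that removes ribonucleotides, ATAD5, which unloads PCNA, and PCLAF, a PCNA-binding protein, differed by 0.24, 0.21 and 0.26. The nucleotide genes showed no such lean, with 3 of 6 above 0, SHMT1 at -0.10, SAMHD1 at 0.11 and CTPS1 at 0.09.

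Upstream of the machinery, E2F2 and CCNE2 rose. These were the 2 of 16 S phase regulators that passed, 14 of the 16 had a higher mean, and their median difference was 0.22. Over all genes 0.134% passed upward and 52.8% had a higher mean, and of those above the median signal 64.4% had one. E2F2, a transcription factor that activates replication genes, gave 7.74, 7.69, 7.78 and 7.83 on YAP1/TAZ siRNA arrays, against 7.11, 7.10, 7.0 and 6.84 on control arrays. CCNE2, a cyclin E that drives CDK2 at S phase entry, gave 10.04, 10.00, 10.35 and 10.08 on YAP1/TAZ siRNA arrays, against 9.51, 9.56, 9.37 and 9.49 on control arrays. Both had separate groups, with differences of 0.75 (SE 0.071, limma adjusted p = 0.00561) and 0.64 (SE 0.084, limma adjusted p = 0.0309). FAM111B, for comparison, differed by 0.76. Of the replication genes with a searched promoter, the 10 with the E2F letters had a median difference of 0.12 (9 above 0) and the 23 without them 0.11 (20 above 0). FAM111B, GINS4 and POLD3, which had 3 of the 4 highest differences, are in neither group. CCNE2 missed the threshold in 6 of the 8 fits without 1 array, namely without YAP1/TAZ siRNA replicates 1 and 4 (adjusted p = 0.0855 and 0.111) and control replicates 1, 2, 3 and 4 (0.117, 0.101, 0.0941 and 0.0825). CDC25A, a phosphatase that activates CDK2, differed by 0.22 (SE 0.058, adjusted p = 0.213). It passed with the displaced arrays as a block (adjusted p = 0.0394, where 1.49% of all genes passed upward) but not without those arrays (0.076). RB1, the retinoblastoma protein that restrains E2F factors, was chosen after its values were seen. It differed by -0.40 (SE 0.11, adjusted p = 0.224), passed downward with that block (0.0328, where 105 of 22411 genes did) and did not pass without those arrays (0.0762). Of the same list and also chosen after their values were seen, E2F7, RBL1 and E2F1 differed by 0.485, 0.3175 and 0.04 (adjusted p = 0.278, 0.367 and 0.961). E2F7 and RBL1 passed upward with that block (0.0317 and 0.0403) and did not pass without those arrays (0.0781 and 0.100).

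Mitosis markers, which follow the share of dividing cells, lay on the same side as the replication genes. All 16 had a higher mean with YAP1/TAZ siRNA, 0 passed the test, 8 had an unadjusted limma p under 0.05 and the median difference was 0.19. All 8 were upward, where 12.2% of genes above the median signal had such a p upward and 15.8% in either direction. A higher mean was seen for 64.4% of genes above the median signal. UBE2C, which tags mitotic cyclins for destruction, differed by 0.46 (SE 0.072, adjusted p = 0.0518), DLGAP5, a spindle protein, by 0.30 (SE 0.062) and KIF23, a kinesin of cytokinesis, by 0.40 (SE 0.086). In 7 of the 16 every YAP1/TAZ siRNA array lay above every control array, against 4.19% of all genes and 7.0% of those above the median signal. UBE2C, DLGAP5 and KIF23 passed with the displaced arrays as a block (adjusted p = 0.0188, 0.0302 and 0.0383, where 1.49% of all genes passed upward). Without those arrays DLGAP5 and KIF23 passed (0.0483 and 0.042) and UBE2C did not (0.0575). The part of a shift in cell cycle position in the replication gene values was not tested.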

How the data were processed

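Per the labels' protocols, mirVana-isolated RNA of the 8 samples was labelled with the GeneChip WT PLUS kit. Per the submitters' processing notes the tool was Transcriptome Analysis Console, and the authors deposited log2 signals per transcript cluster. The sources used here do not give its algorithm, normalization or genome build. The log2 scale was read from the range of 2.27 to 19.93. Of 67528 clusters 23781 had 1 gene symbol. Symbols were updated with RefSeq names (GRCh38.p14), and the cluster with the highest mean was used for each of 22411 genes.

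R 4.3.3 and limma 3.58.1 were used for the tests (lmFit, eBayes, no covariate), with Benjamini-Hochberg adjustment over all genes and a threshold of 0.05. The step was tested on simulated data. Groups came from sample titles. The 39 genes and the other lists were chosen with earlier results of these data known. Values on every array are given for genes past the threshold and the 2 with the smallest p in each of 9 role groups, with up to 3 genes named from each other list. Beyond these, RB1, E2F7, RBL1 and E2F1 were named from the S phase regulators. MCM5 and other genes named for the displaced arrays were chosen after their values were seen. Alternatives covered the replicate block, normalization, dim genes, clusters, variance model, array weights and each array left out. The number of arrays limits precision.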

Additional observations from a re-analysis of the deposited data

Results flagged for a closer look

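In some groups of 4 arrays 1 array lay far from the other 3 relative to the range of the group (Dixon's test at the 95% level). This was seen in 9 of 116 groups examined, where chance gives about 1 in 20. YAP1/TAZ siRNA replicate 2 was the low array for MCM5 (9.87, others 10.61 to 10.69), MCM10 (7.37, others 7.83 to 7.87), POLE (9.83, others 10.27 to 10.33), TICRR (9.80, others 10.52 to 10.60) and CDC25A (6.99, others 7.14 to 7.16). Control replicate 4 was the low array for MCM10 (7.59, others 7.87 to 7.91) and the high one for DLGAP5 (12.81, others 12.61 to 12.64). YAP1/TAZ siRNA replicate 1 was the low array for CDC6 (10.49, others 10.59 to 10.60) and for YAP1 itself (6.27, others 6.40 to 6.42).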

How the results depend on the processing

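The median difference of the 38 replication genes stayed above 0 in all 18 alternatives, at 0.07 to 0.17, and 30 of 38 genes were above 0 after quantile normalization. The count of replication genes past the threshold was 1 and became 0 with the replicate number as a block, with each array centred on its median, with every transcript cluster tested and without both displaced arrays, 2 with those arrays as a block, and 0 to 1 with 1 array left out. For the 61 other replication and S phase genes it was 2 and became 0 with the replicate block and with centring, 1 with every cluster tested, 7 with array quality weights, 8 with the displaced arrays as a block, and 1 to 3 with 1 array left out. Over all genes it was 48 and became 3 with the replicate block, 17 with centring, 82 without dim genes, 16 with every cluster tested, 559 with array weights, 188 without both displaced arrays, 439 with them as a block, and 12 to 166 with 1 array left out. The replicate numbers share no stated pairing, and same-numbered arrays correlated in their departures from the group means at 0.37, -0.47, 0.016 and -0.39, so the block pairs arrays by number only. WWTR1 stayed at -0.62 with the replicate block (adjusted p = 0.147) and with every cluster tested (0.0532), and without control replicate 1 was -0.60 (0.0515), within -0.65 to -0.58 over the fits without 1 array.

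None of the 11 genes that changed sign passed the test on either side. Without control replicate 4 these were CDT1 (-0.005), MCM5 (-0.025), POLA2 (-0.026), POLE (-0.00083), TK1 (-0.036) and CHAF1B (-0.13). Without both displaced arrays they were CDT1 (-0.0067) and GMNN (-0.027). After quantile normalization they were GMNN (-0.010), CDC45 (-0.018), RFC3 (-0.031) and CHAF1B (-0.0098). Without YAP1/TAZ siRNA replicate 2 they were GMNN (-0.020), MCM10 (0.038) and POLD1 (0.0025), without replicate 3 CDC45 (-0.014) and RFC3 (-0.030), without replicate 1 CHAF1B (-0.064) and without replicate 4 CHAF1B (-0.021). Without control replicate 2 they were GMNN (-0.0067), POLD1 (0.0042) and RFC3 (-0.032), and without control replicate 1 RFC3 (-0.005). With 1 array left out the differences of these genes ran from -0.005 to 0.155 for CDT1, -0.020 to 0.063 for GMNN, -0.025 to 0.3175 for MCM5, -0.014 to 0.044 for CDC45, -0.1575 to 0.038 for MCM10, -0.026 to 0.1125 for POLA2, -0.00083 to 0.22 for POLE, -0.0475 to 0.0042 for POLD1, -0.032 to 0.08 for RFC3, -0.036 to 0.156 for TK1 and -0.13 to 0.199 for CHAF1B. The cause was not tested. No background level could be read from the sources, which limits the dimmer genes such as GINS3.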
